A study of Mus musculus with 16 samples.

Results

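A fixed list of 10 Toll-like receptor (TLR) genes (Tlr1 to Tlr9 and Tlr13) was described in RNA-seq of epididymal white adipose tissue (eWAT). Each member was matched in the count table by its Ensembl identifier, and Tlr genes outside the list were not examined. The members were 10 of 55573 genes in the table. All 10 were among the 20822 genes that passed the filter on low counts and were tested. All mice were males of the C57BLKS/J-db/db strain, which lacks a working leptin receptor and becomes obese and diabetic, and all had received an adeno-associated virus of serotype 8. The AAV-eGFP group (the eGFP controls) carried a vector for enhanced green fluorescent protein, and the AAV-LRG1-FL group (the LRG1 group) carried the same vector with FLAG-tagged LRG1, leucine-rich alpha-2 glycoprotein, under the CB7 promoter, which is not specific to a cell type. eWAT was taken at week 7 or week 10 of age, with 4 libraries in each of the 4 groups. By the study's methods the vector was assigned cage by cage, and the labels do not give each library's cage or litter, so cage and vector cannot be told apart and the p-values measure the spread between these libraries.

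TLRs are membrane receptors of innate immunity that bind microbial products and some molecules released by damaged cells. Members at the cell surface bind lipopeptides, lipopolysaccharide or flagellin, whereas members in endosomes bind nucleic acids. Nearly all signal through the adaptor MyD88, and Tlr3 and Tlr4 also use TRIF, to reach NF-kB and interferon regulatory factors. In obese adipose tissue, macrophages that gather around dying adipocytes are a main site of their expression. The study asked whether LRG1, a secreted protein of adipocytes, changes inflammation in obese fat, and the comparisons here were the LRG1 group against eGFP controls at each week, the difference between the weeks, and week 10 against week 7 within each vector.

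The promoter windows below show the members that the results turn on: Tlr13 and Tlr8, the highest members per length, Tlr9, which fell with LRG1 at week 7 and between the weeks in controls, and Tlr5, the member that rose. Each is the stretch upstream of the RefSeq start on GRCm38.p6, at most 250 bases and ending before the gene's annotated exons, written 5′ to 3′ on the gene's strand. Capitals mark a match to the PU.1 core (GAGGAA) or the GAS element (TTCNNNGAA), searched on both strands.
Tlr13, chrX:106143025-106143203, plus strand: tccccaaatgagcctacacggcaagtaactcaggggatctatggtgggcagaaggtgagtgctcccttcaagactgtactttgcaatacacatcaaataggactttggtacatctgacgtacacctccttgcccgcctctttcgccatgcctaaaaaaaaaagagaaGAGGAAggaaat
Tlr8, chrX:167264330-167264579, minus strand: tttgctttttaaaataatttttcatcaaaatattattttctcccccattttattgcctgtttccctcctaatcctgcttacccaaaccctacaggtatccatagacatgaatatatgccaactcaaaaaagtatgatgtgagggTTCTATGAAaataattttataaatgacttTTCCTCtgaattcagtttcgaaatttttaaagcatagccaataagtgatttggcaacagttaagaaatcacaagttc
Tlr9, chr9:106222348-106222597, plus strand: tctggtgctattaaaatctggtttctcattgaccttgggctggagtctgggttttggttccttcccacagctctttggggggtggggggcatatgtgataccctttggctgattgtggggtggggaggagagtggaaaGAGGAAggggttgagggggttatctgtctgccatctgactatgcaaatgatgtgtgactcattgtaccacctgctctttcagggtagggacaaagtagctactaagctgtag
Tlr5, chr1:182954538-182954787, plus strand: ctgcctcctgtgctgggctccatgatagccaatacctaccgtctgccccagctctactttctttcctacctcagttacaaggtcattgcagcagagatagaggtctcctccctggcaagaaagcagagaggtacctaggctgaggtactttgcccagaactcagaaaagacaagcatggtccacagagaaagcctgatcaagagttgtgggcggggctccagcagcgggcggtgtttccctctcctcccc

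Of the 10 members, 8 had a RefSeq promoter window (250 bases before to 50 after the start), 10 windows in all. The PU.1 core lay in 4 of the 10 windows (Tlr1, Tlr8, Tlr9 and Tlr13) and in 28.3% of all 32851 promoter windows. The GAS element lay in 3 windows, of Tlr1, Tlr6 and Tlr8, against 8.3% of all windows. The interferon-response core (GAAA, any 2 bases, GAAA) was found in 1 window, of Tlr6, as a pair of overlapping matches (3.44% of all windows), and the kappa B site (GGGA, any base, TTTCC) in 1 window, of Tlr3 (0.411% of all windows). The windows of Tlr2 and Tlr5 held none of these letters. These matches describe sequence only.

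Library totals ran from 45376227 to 67539937 counts, and the members' counts from 100 (Tlr5) to 21260 (Tlr13) per library. CPM below are counts scaled to a common library size, with TMM-adjusted library sizes. Lrg1, the gene the vector carries, ran from 86.2 to 115 CPM over the 8 control libraries, and the range was 286 to 624 CPM where LRG1 was given. The 9 adipocyte markers, among them Adipoq and Plin1, summed to between 8072 and 19890 CPM, and none lay below 0.1 CPM. Mitochondrial genes took 26.7 to 28.7% of counts in the week-7 controls and 30.7 to 34.2% in the week-7 LRG1 group, without overlap, whereas the week-10 ranges overlapped (26.7 to 30.2% and 27.6 to 31.4%); with these genes removed the member counts given below were 8 at week 7 and 5 at week 10. Within groups, log2 CPM of pairs of libraries correlated at 0.963 to 0.987. In the week-10 eGFP controls, replicates 1 and 3 stood apart from replicates 2 and 4: the 14 macrophage markers summed to 6626 and 6924 CPM against 2993 and 4118 CPM. The 9 adipocyte markers split the other way, at 8072 and 9768 CPM against 16957 and 16670 CPM. The mesothelial markers did so too, at 80.5 and 50.1 CPM against 155 and 153 CPM. The split of these replicates ran through most members at week 10.

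**Figure D1:**
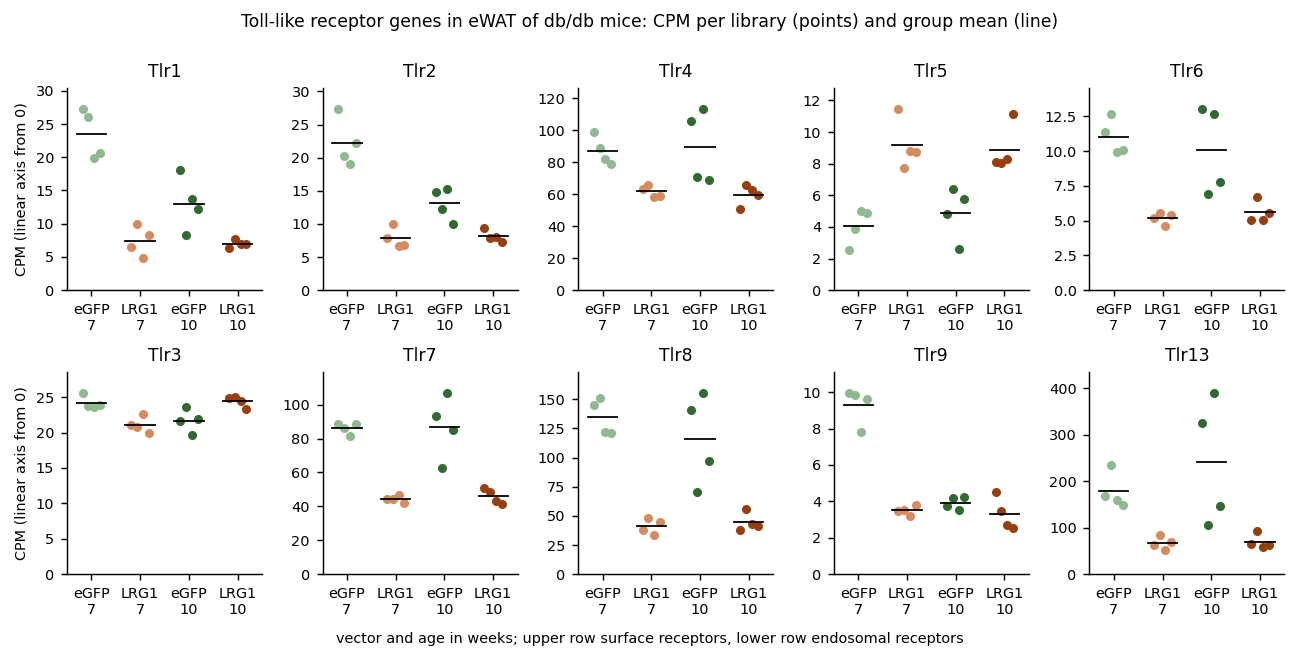
CPM of each member (vertical axis, linear from 0) in each of the 16 libraries (points) by vector and age in weeks, with the group mean as a line; the upper row holds the surface receptors and the lower row the endosomal receptors. At week 7 the LRG1 libraries of 9 members lie below all their eGFP controls and those of Tlr5 lie above, while the week-10 controls of Tlr4, Tlr6, Tlr8 and Tlr13 form a high and a low pair.

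At week 7, 7 of the 10 members were lower in the LRG1 group and 1, Tlr5, was higher, while Tlr3 and Tlr4 did not pass (edgeR quasi-likelihood test, Benjamini-Hochberg adjusted p below 0.01 over all tested genes). Among all tested genes, 10.7% were called lower and 7.37% higher, 18% in all (2221 and 1534 genes; 3636 and 341 when scaled by library size alone, under which all 8 member calls but that of Tlr5 were kept). The median log2 fold change of the members was -1.25, against 0.0059 for all tested genes. The ranges of the 4 LRG1 and 4 eGFP libraries did not overlap for any member, with 9 lower and 1 higher; over all genes the groups failed to overlap for 19.4% lower and 18.6% higher.

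At week 10, 6 members were lower, none was higher and 4 did not pass (Tlr1, Tlr3, Tlr5 and Tlr9), where 5.24% of all tested genes were lower and 3.66% higher, 8.9% in all (1092 and 762 genes; 1136 and 320 by library size alone). The members' median log2 fold change was -0.77, against -0.0047 for all genes. The ranges did not overlap for 8 members, 7 of them lower and Tlr5 higher, against 10.1% of all genes lower and 9.96% higher. The week-10 count was less firm than that of week 7. It was 3 without eGFP replicate 1 or without eGFP replicate 3 of week 10, 3 without LRG1 replicate 1, 2 without LRG1 replicate 3 or 4, 3 with limma-voom, and 0 when only the 8 libraries of week 10 were fitted; it was 8 without eGFP replicate 2 and 8 in DESeq2. The counts over all genes moved with it, from 1092 lower and 762 higher to 273 and 216 without eGFP replicate 1, 291 and 239 without eGFP replicate 3, 441 and 289 without LRG1 replicate 1, 196 and 220 without LRG1 replicate 3, and 125 and 159 without LRG1 replicate 4, and up to 2046 and 1601 without eGFP replicate 2. With the replicate number as a block it was 4, Tlr4 (adjusted p = 0.0174) and Tlr6 (adjusted p = 0.0121) no longer passing in edgeR.

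**Figure D2:**
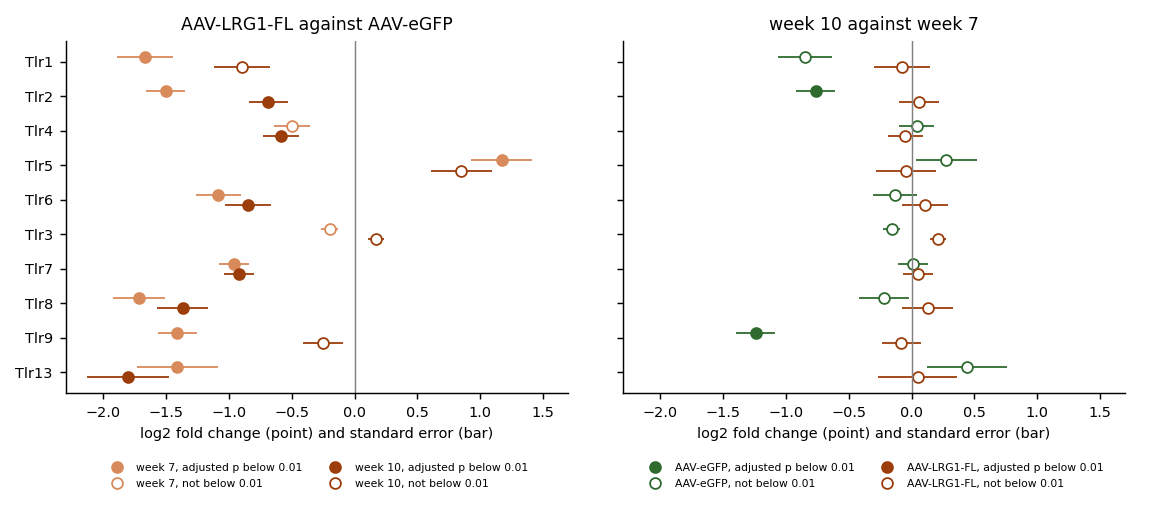
Log2 fold change (horizontal axis) with its standard error for each member, left for AAV-LRG1-FL against AAV-eGFP at both weeks and right for week 10 against week 7 within each vector; filled points passed an adjusted p of 0.01. On the left, Tlr5 alone lies well to the right of 0, from 0.85 to 1.17, and on the right Tlr2 and Tlr9 are the filled points, both in eGFP controls.

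Among the surface receptors, Tlr2 recognises bacterial lipopeptides together with a partner, Tlr1 for triacylated and Tlr6 for diacylated ligands. Tlr2 (chr3:83836272-83841767, minus strand, GRCm38) lay at 27.3, 20.2, 19.1 and 22.2 CPM in the eGFP controls of week 7 and at 7.83, 10.0, 6.66 and 6.79 CPM in the LRG1 group. The week-10 controls lay at 14.9, 12.2, 15.3 and 10.1 CPM and the LRG1 libraries at 9.36, 7.83, 8.05 and 7.28 CPM. The groups stayed apart at both weeks, by a narrow margin at week 10, where the controls had come down. Its log2 fold change was -1.5 (SE 0.16) at week 7 (edgeR adjusted p = 7.41e-06) and -0.69 (SE 0.16) at week 10 (edgeR adjusted p = 0.00717). At week 10 this call was lost with limma-voom (adjusted p = 0.013), with only the week's 8 libraries (adjusted p = 0.0389) and without any of 6 of the 8 libraries of that week.

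Tlr1 (chr5:64924679-64933563, minus strand) lay at 27.2, 26.1, 19.8 and 20.7 CPM in the week-7 controls and at 6.49, 9.94, 4.78 and 8.36 CPM in the week-7 LRG1 libraries. Values at week 10 were 18.01, 8.24, 13.7 and 12.2 CPM in controls and 6.41, 7.75, 6.96 and 6.88 CPM in the LRG1 group. As for Tlr2, the LRG1 levels were alike at both weeks, and the controls differed. The fitted log2 change was -1.67 (SE 0.22) at week 7 (edgeR adjusted p = 7.03e-05) and -0.90 (SE 0.22) at week 10, where the edgeR adjusted p of 0.0104 fell just short of the threshold, although the groups did not overlap. DESeq2 gave 0.00105 for the latter.

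Tlr6 (chr5:64952031-64960097, minus strand), next to Tlr1 on chromosome 5, fell from 11.4, 12.7, 9.95 and 10.1 CPM in the week-7 controls to 5.22, 5.57, 4.61 and 5.39 CPM in the LRG1 group. Its week-10 controls lay at 13.02, 6.88, 12.7 and 7.77 CPM, against 5.07, 6.69, 5.08 and 5.55 CPM with LRG1. The lowest control of week 10, replicate 2, was barely above the highest LRG1 library. The log2 fold change was -1.08 (SE 0.18, edgeR adjusted p = 0.000417) at week 7 and -0.85 (SE 0.18, edgeR adjusted p = 0.00492) at week 10. The later call did not survive leaving out eGFP replicate 1 or 3 or LRG1 replicate 1, 3 or 4 (adjusted p from 0.0167 to 0.021).

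Tlr1 and Tlr6 are close paralogs. Of the 3332 different 50-base windows in Tlr1 transcripts, 454 also occurred in Tlr6 transcripts, and 15.4% of all Tlr1 windows occurred in some other gene. The setting for reads with several matches is not given in the sources used here, so the split of counts between the pair is uncertain.

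Tlr4, the receptor for lipopolysaccharide (chr4:66827584-66930284, plus strand), lay at 98.6, 88.9, 82.1 and 78.6 CPM in the week-7 controls and at 63.5, 65.8, 58.3 and 58.8 CPM in the LRG1 group. Its week-10 controls were at 106, 70.6, 113 and 68.6 CPM, and its LRG1 libraries at 50.8, 65.5, 62.5 and 59.3 CPM. The groups were apart at both weeks, but the shift was the smallest of the surface receptors. Its log2 fold change was -0.50 (SE 0.14) at week 7 (edgeR adjusted p = 0.0147, not passed) and -0.59 (SE 0.14) at week 10 (edgeR adjusted p = 0.00965, passed). Week 7 passed with DESeq2 (adjusted p = 0.00626). Week 10 did not pass with limma-voom (adjusted p = 0.0139), with the 8 libraries of that week (adjusted p = 0.0692), or without any of 6 of those libraries. Across all alternatives the week-10 call was lost in 11 and kept in 8. The near-equal changes on either side of the threshold do not show a difference between the weeks.

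Tlr5, the flagellin receptor (chr1:182954788-182976044, plus strand), was the member that went the other way. It lay at 2.55, 3.88, 4.999 and 4.87 CPM in the week-7 controls and at 11.4, 7.73, 8.80 and 8.75 CPM in the LRG1 group. In the older mice the controls lay at 4.84, 6.38, 2.60 and 5.78 CPM and the LRG1 libraries at 8.11, 8.03, 8.31 and 11.1 CPM. Every LRG1 library was above every control of its week. The fitted log2 change was 1.17 (SE 0.24) at week 7 (edgeR adjusted p = 0.00209) and 0.85 (SE 0.24) at week 10, which did not pass (edgeR adjusted p = 0.0202; DESeq2 adjusted p = 0.00419). Scaling by library size alone, which moved the median of all genes to -0.15 at week 7, left the week-7 change at 1.01 with an adjusted p of 0.01.

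Some cell type markers were also higher beside Tlr5 at week 7, where 7.37% of all tested genes were. Of the 5 endothelial markers 4 were higher (summed 413 to 559 CPM with LRG1, 239 to 308 CPM in controls), of the 9 adipocyte markers 1 (15810 to 19620 against 11880 to 12610 CPM), of the 6 fibroblast and progenitor markers 1, and of the 5 mesothelial markers 0 (119 to 175 against 67.5 to 112 CPM). No marker of these lists lay below 0.1 CPM. At week 10 the counts were 0, 2, 0 and 0. Of the 6 conventional dendritic cell markers, Cd209a was higher at both weeks, with 3 lower at week 7 and 1 at week 10. With group means taken out, Pearson r of Tlr5 was 0.69 to mesothelial, 0.654 to fibroblast and progenitor, 0.402 to adipocyte and 0.286 to endothelial markers. The Spearman rho were 0.468, 0.565, 0.141 and 0.309 in that order. To the leukocyte lists the Pearson r was negative, from -0.199 (conventional dendritic cell) to -0.684 (pan-leukocyte), with -0.591 to macrophage markers. The week-10 controls, which were split, gave 52.1% of the within-group sum of squares of Tlr5. The part of these cell types in the Tlr5 difference was not tested.

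Among the endosomal receptors, Tlr13, a sensor of bacterial ribosomal RNA that humans lack, had the highest levels (chrX:106143204-106160493, plus strand). It lay at 169, 235, 160.3 and 148 CPM in the week-7 controls and at 62.2, 84.8, 52.1 and 68.9 CPM with LRG1. At week 10 the controls spread from 106 to 389 CPM (326, 106, 389 and 146 CPM), and the LRG1 libraries lay at 64.1, 91.8, 59.1 and 61.9 CPM. The wide week-10 control range followed the pairing of replicates 1 and 3 against 2 and 4, and even its lowest value was above all LRG1 libraries. The log2 fold change was -1.41 (SE 0.32, edgeR adjusted p = 0.00375) at week 7 and -1.80 (SE 0.32, edgeR adjusted p = 0.00243) at week 10. The week-7 call was lost without eGFP replicate 2 or LRG1 replicate 1, 3 or 4 of that week (adjusted p from 0.0116 to 0.0164), and the week-10 call without LRG1 replicate 3 or 4 of that week (adjusted p 0.0107 and 0.0125).

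Tlr8 (chrX:167242696-167264329, minus strand) and Tlr7 (chrX:167304929-167330558, minus strand) are neighbouring paralogs of the RNA-sensing group. Tlr8 lay at 145, 151, 122 and 121 CPM in the week-7 controls and at 37.8, 48.2, 33.3 and 44.8 CPM with LRG1. At week 10 its controls lay at 140.5, 70.3, 155 and 96.7 CPM and the LRG1 libraries at 38.1, 56.3, 43.2 and 41.6 CPM. No other member fell further at week 7: its log2 fold change was -1.72 (SE 0.21, edgeR adjusted p = 2.77e-05), and at week 10 it was -1.37 (SE 0.20, edgeR adjusted p = 0.00121).

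Tlr7, a receptor for single-stranded RNA, lay at 88.7, 86.0, 81.6 and 88.4 CPM in the week-7 controls and at 44.4, 44.2, 46.6 and 42.1 CPM with LRG1. The controls of week 10 were at 93.1, 62.4, 107 and 84.9 CPM and the LRG1 libraries at 50.6, 48.6, 43.1 and 41.4 CPM. Both groups were tight at week 7, and the step was nearly the same size at both weeks. Its log2 fold change was -0.96 (SE 0.12, edgeR adjusted p = 3.85e-05) at week 7 and -0.92 (SE 0.12, edgeR adjusted p = 0.000862) at week 10. The week-10 Tlr7, Tlr8 and Tlr13 calls were lost when only the 8 libraries of that week were fitted (adjusted p from 0.0306 to 0.0392). In that fit 10 genes of all were lower and 2 higher.

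Tlr9, which binds unmethylated CpG DNA (chr9:106222598-106226883, plus strand), passed at week 7 only. The week-7 controls lay at 9.94, 9.84, 7.79 and 9.63 CPM, and the LRG1 libraries at 3.48, 3.51, 3.22 and 3.79 CPM. At week 10 both groups lay low, the controls at 3.77, 4.16, 3.54 and 4.23 CPM and the LRG1 libraries at 4.51, 3.47, 2.68 and 2.56 CPM. The week-7 controls thus formed the only high group, and the groups of week 10 overlapped. Controls of Tlr2 and Tlr1 were also lower at week 10 than at week 7, but their week-10 groups did not overlap. The fitted log2 change was -1.41 (SE 0.16) at week 7 (edgeR adjusted p = 1.12e-05) and -0.25 (SE 0.16) at week 10 (edgeR adjusted p = 0.261).

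Tlr3, the receptor for double-stranded RNA (chr8:45395665-45411080, minus strand), was nearly level. It lay at 25.5, 23.8, 23.6 and 23.9 CPM in the week-7 controls and at 21.1, 20.8, 22.6 and 19.9 CPM with LRG1. At week 10 the controls lay at 21.6, 23.6, 19.6 and 21.9 CPM and the LRG1 libraries at 24.9, 25.0, 24.4 and 23.3 CPM. The LRG1 mean was then the higher, but the groups overlapped. The log2 fold change was -0.20 (SE 0.07) at week 7 and 0.17 (SE 0.07) at week 10, and neither passed (edgeR adjusted p = 0.0324 and 0.0743). Its exons overlap those of the antisense gene Gm45542 over 381 bases, and since the strand setting of the counting is not given in the sources used here, reads of the 2 genes cannot be told apart there.

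The difference of the LRG1 effect between the weeks was tested directly. None of the 10 members passed in edgeR (0.327% of all tested genes did, 0.0192% with a negative and 0.307% with a positive difference), 4 had an unadjusted p under 0.05, and DESeq2 called 1, Tlr9. The difference was 1.16 (SE 0.22) for Tlr9 (edgeR adjusted p = 0.0165; DESeq2 adjusted p = 9.35e-05), and without LRG1 replicate 4 of week 10 the edgeR value was 0.00906. It was 0.82 for Tlr2 (edgeR adjusted p = 0.112), 0.77 for Tlr1 (edgeR adjusted p = 0.402) and 0.37 for Tlr3 (edgeR adjusted p = 0.0862). For the other 6 members it lay between -0.39 and 0.35.

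Within the eGFP controls, 2 members were lower at week 10 than at week 7, Tlr9 with a log2 fold change of -1.24 (SE 0.15, edgeR adjusted p = 0.000271) and Tlr2 with -0.76 (SE 0.16, edgeR adjusted p = 0.00858); of all tested genes, 1.51% were lower and 0.629% higher, 2.14% in all. Tlr1 was at -0.85 (SE 0.22, edgeR adjusted p = 0.0301) and did not pass. The weeks did not overlap for 4 members (Tlr1, Tlr2, Tlr3 and Tlr9), all lower at week 10, against 6.89% of all genes lower and 4.08% higher. The Tlr2 call was lost without any of 6 of these 8 libraries (adjusted p from 0.0108 to 0.0368), and the Tlr9 call was kept in every alternative. Beside these, the 7 T cell markers summed to 33.9 to 66.3 CPM in the week-7 controls and 16.97 to 21.2 CPM at week 10, with 2 of 7 lower, whereas B cell markers summed to 7.81 to 20.5 CPM and 18.5 to 61.1 CPM, with 0 of 8 called. Plasmacytoid dendritic cell markers summed to under 7 CPM in each library, with 0 of 5 called and none below 0.1 CPM. Of the 14 macrophage markers 2 were lower, of the 8 pan-leukocyte markers 1 and of the 6 conventional dendritic cell markers 0, with 0 higher in these lists. Some other lists rose: of 6 mast cell markers 2 were higher (median log2 fold change 2.22) and of 7 tested neutrophil markers 1 (3.35), with 0 lower. Of 6 lipid-associated macrophage markers 0 were called (median 0.92). The part of these cells in the Tlr9 and Tlr2 differences was not tested.

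Within the LRG1 group, no member passed between the weeks in edgeR, and 1, Tlr3, had an unadjusted p under 0.05 (log2 fold change 0.21, SE 0.07, adjusted p = 0.394). The log2 fold changes lay between -0.08 and 0.21, and DESeq2 also called none. Of all tested genes, 0.0048% were lower and 0.0048% higher, 0.00961% in all. The ranges of the weeks were apart for 1 member, Tlr3, against 3.41% of all genes lower and 3.64% higher.

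Per kilobase of gene length, the week-7 controls ordered the members as Tlr13, Tlr8, Tlr7, Tlr4, Tlr2, Tlr1, Tlr3, Tlr6, Tlr9 and Tlr5, from a median of 38.3 to 0.913 CPM per kb. Of the 9 neighbouring pairs in that order, 6 had separate ranges, the exceptions being Tlr13 and Tlr8, Tlr2 and Tlr1, and Tlr6 and Tlr9. In the LRG1 group of week 7, the first 4 were Tlr13 (median 15.2 CPM per kb), Tlr8 (11.5), Tlr4 (11.005) and Tlr7 (10.8), where each overlapped its neighbour in the order, but the range of Tlr13 (12.1 to 19.7) lay above those of Tlr4 (10.5 to 11.9) and Tlr7 (10.3 to 11.4). Tlr5 was last among the controls of both weeks, at 0.913 and 1.11 CPM per kb, and the third from last in both LRG1 groups, at 1.83 and 1.71 CPM per kb, where Tlr9 was last.

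The summed level of the listed members was 141.2 CPM per kb on average in the week-7 controls and 62.1 in the LRG1 group. The ranges were 129 to 160 and 55.3 to 70.2 CPM per kb. At week 10 the means were 143.0 and 64.3 CPM per kb, and the control range, 87.7 to 198 CPM per kb, was the wider. The mix shifted as well. At week 7 Tlr8 made up 26.6% of the summed level in controls and 18.3% with LRG1, whereas Tlr4 made up 11.1% and 17.9%, and Tlr5 0.617% and 3.12%. Tlr13 gave the most in all 4 groups, from 24.8% to 36.9%.

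**Figure D3:**
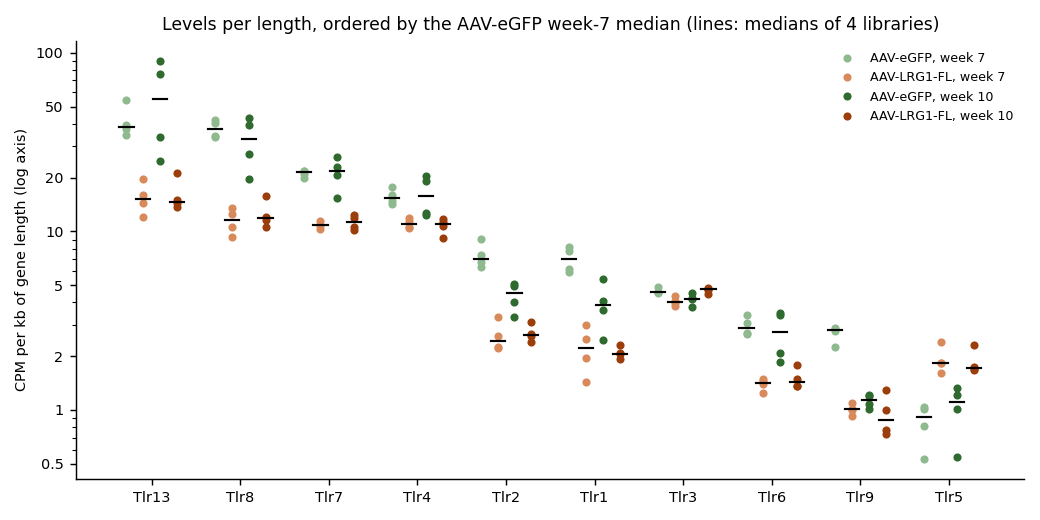
CPM per kb of gene length (vertical log axis) of the 10 members in each library (points) with the median of each group of 4 libraries (line), ordered by the week-7 eGFP controls. The spread from Tlr13 to Tlr5 is from 38.3 to 0.913 CPM per kb in those controls, and the colours for the LRG1 groups of weeks 7 and 10 lie close to each other in every member.

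Ratios between receptors asked whether members shifted by the same amount, in 5 pairs at 2 weeks. The pairs were partners or paralogs, except Tlr4 and Tlr2, which were taken as surface receptors. At week 7, the log2 ratio of Tlr1 to Tlr6 was 1.08 ± 0.12 (SD, n = 4) in controls and 0.46 ± 0.35 in the LRG1 group, that of Tlr7 to Tlr8 was -0.64 ± 0.15 and 0.13 ± 0.29, and that of Tlr4 to Tlr2 was 1.98 ± 0.16 and 2.995 ± 0.19. In these 3 of the 10 comparisons the groups did not overlap. Each gave an exact permutation p = 0.0286, two-sided, the smallest that 4 against 4 libraries allow, and 0.0952 after adjustment over the 10 tests, so none passed. Tlr1 to Tlr2 and Tlr6 to Tlr2 overlapped at both weeks, and all 5 pairs overlapped at week 10.

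Macrophage markers moved with the family. Of the 14 markers (among them Adgre1, Csf1r and Cd68), 11 were lower with LRG1 at week 7 (median log2 fold change -1.30) and 10 at week 10 (-0.92), with none higher at either week. They summed to between 4432 and 5651 CPM in the week-7 controls and 2118 to 2406 CPM with LRG1, then 2993 to 6924 CPM and 2062 to 2673 CPM at week 10. None lay below 0.1 CPM in any group. All 8 pan-leukocyte markers were lower at both weeks (median -1.58 and -1.28). Markers of some other leukocytes moved too. Of 7 T cell markers 7 were lower at week 7 (median -3.30, summed 33.9 to 66.3 CPM in controls, 4.30 to 12.8 CPM with LRG1) and 3 at week 10 (-1.41). Of 6 lipid-associated macrophage markers 2 were lower at week 7 and 6 at week 10 (median -2.42), of 6 mast cell markers 0 and 6 (-3.37), and of 7 tested neutrophil markers 1 and 4 (-3.31). At week 10 the summed levels of these 3 lists spread widely in controls, from 1123 to 10680, 47.99 to 440.5 and 24.9 to 373 CPM, and were 507 to 983, 29.2 to 32.5 and 39.1 to 87.8 CPM with LRG1. Of 8 B cell markers 0 were called at either week (median -0.34 at week 7 and -0.86 at week 10). Of 5 plasmacytoid dendritic cell markers 0 were called at either week (median -0.33 and 0.53). In bulk tissue, fewer cells of a type and less RNA per cell cannot be told apart, and the part of these cells in the members' differences was not tested.

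Relative to the summed macrophage markers, the members did not move as a block. At week 7, Tlr1, Tlr8 and Tlr9 were lower with LRG1 in every library than in every control, with mean log2 differences of -0.59, -0.60 and -0.29, and Tlr4, Tlr3 and Tlr5 were higher, with 0.63, 0.92 and 2.33. At week 10, Tlr8 (-0.24) and Tlr13 (-0.55) were lower in every library, and Tlr3 (1.26) and Tlr5 (2.005) were higher. On this scale 1.99% of all tested genes were lower and 74.8% higher without overlap at week 7, and 0.61% and 55.3% at week 10, the divisor itself being lower with LRG1. The ranges of Tlr2, Tlr6 and Tlr7 overlapped at both weeks. The difference for Tlr6 was 0.04 at week 7 and 0.28 at week 10, and that for Tlr7 was 0.16 and 0.19.

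**Figure D4:**
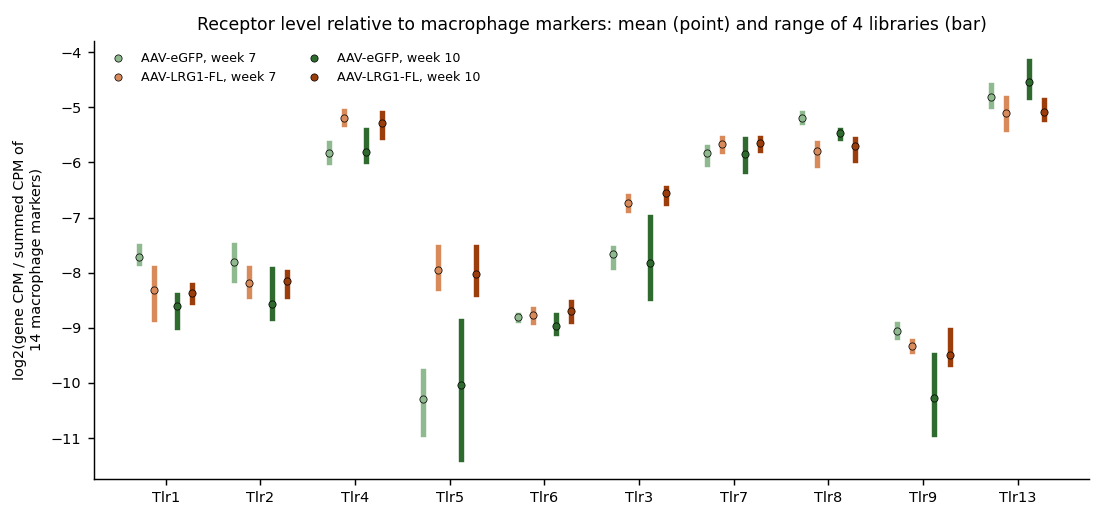
Log2 ratio of each member's CPM to the summed CPM of 14 macrophage markers (vertical axis), as the mean (point) and range (bar) of 4 libraries for each vector and age. Bars of Tlr6 and Tlr7 overlap at both weeks, those of Tlr5 and Tlr3 are higher with LRG1 at both weeks, and that of Tlr8 is lower.

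Some members varied together within groups, after the group mean was taken from each of the 16 libraries. The closest were Tlr6 and Tlr13 (Pearson r = 0.97, 16 libraries), Tlr8 and Tlr13 (0.95) and Tlr6 and Tlr8 (0.94). Without the 4 libraries of the week-10 controls these were 0.91, 0.89 and 0.91. Other pairs rested on those 4 libraries: without them Tlr7 and Tlr13 went from 0.74 to 0.12, Tlr7 and Tlr8 from 0.69 to -0.05, Tlr6 and Tlr7 from 0.68 to 0.05, and Tlr4 and Tlr13 from 0.84 to 0.48. The genes most alike to Tlr13 were Cyba (0.99), a subunit of the phagocyte oxidase, C3ar1 (0.99), a complement receptor, and Card9 (0.99), an adaptor of myeloid cells. Those of Tlr6 were C3ar1, Rab7b and Cd300a (each 0.98), and those of Tlr8 were Snx5 (0.97), Fcgr3 (0.96), a receptor for immunoglobulin, and Arhgap9 (0.96).

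For the others the likeness was weaker or to genes of a different kind. Tlr1 was most like Gpr35 (0.94), Clec7a (0.91), the beta-glucan receptor, and Dennd1c (0.91). Tlr4 was most like Prkx, Rbbp5 and Itsn2 (0.95 to 0.96), and Tlr7 most like Pak4, Tifa and Atxn7l3 (0.94 to 0.95). Tlr2 was most like Dleu2, Zfp62 and BC023105 (0.84 to 0.85), Tlr3 most like Rmi1, Lysmd3 and Il18r1 (0.84 to 0.90), Tlr9 most like Dnajb1, Gpr18 and Gm16675 (0.87 to 0.92), and Tlr5 most like Lrp3, Lgals2 and Efna5 (0.87 to 0.89). Tlr5 had negative r, from -0.64 to -0.69, to Tlr2, Tlr4, Tlr7, Tlr8 and Tlr13 (-0.32 to -0.61 without the week-10 controls), but -0.10 to Tlr9 and 0.24 to Tlr3. Without the week-10 controls the r was -0.425 to Tlr9 and -0.53 to Tlr3, within the range of those members. These likenesses are descriptions over 16 libraries whose cell type markers differed within groups, and the part of the cell mix in them was not tested. The week-10 controls gave 76.0% of the within-group sum of squares of Tlr13, 80.8% of that of Tlr7 and 7.66% of that of Tlr9.

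The other parts of the pathway were read from lists set up for this purpose, beside the shares of all tested genes (10.7% lower and 7.37% higher at week 7, 5.24% and 3.66% at week 10). Of the 16 accessory and trafficking proteins, 8 were lower and 1 higher at week 7, and 9 lower and 1 higher at week 10. Ly86, the partner of the Tlr4-like protein Cd180, was at -1.85 and -0.81 on the log2 scale (edgeR adjusted p = 5.04e-08 and 0.00103). Unc93b1, the chaperone that carries the endosomal receptors, was at -1.30 and -0.78 (edgeR adjusted p = 1.3e-06 and 0.00113). Cd14, a co-receptor for lipopolysaccharide, was at -1.26 and -0.77 (edgeR adjusted p = 7.03e-05 and 0.00562), and Ctss, a protease that cleaves endosomal receptors, at -2.07 and -1.99 (edgeR adjusted p = 0.000128 and 0.00121). Lbp, the lipopolysaccharide-binding protein, rose, by 1.36 and 1.23 (edgeR adjusted p = 0.000425 and 0.00257).

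Of the 21 adaptors and kinases, 11 were lower and 1 higher at week 7, and 3 lower and 0 higher at week 10; the 1 of 21 higher lay below the share of all genes. At week 7, Myd88 was at -0.81 (edgeR adjusted p = 0.000137), Ticam2, the bridging adaptor of Tlr4, at -1.19 (adjusted p = 0.000195), and Btk at -1.36 (adjusted p = 0.000427), while Tab3 rose by 0.65 (adjusted p = 0.00198). At week 10, Btk was at -1.20 (edgeR adjusted p = 0.00293), Pik3ap1 at -1.21 (adjusted p = 0.00565) and Tbk1 at -0.45 (adjusted p = 0.00649). This count at week 10 ran from 0 to 10 when single libraries were left out, with 0 without eGFP replicate 1 or 3 or LRG1 replicate 3 or 4, 1 without LRG1 replicate 1, 10 without eGFP replicate 2 and 9 without eGFP replicate 4. Likewise the 10 accessory genes called at week 10 became 5 without eGFP replicate 1 or 3 or LRG1 replicate 1, and 3 without LRG1 replicate 3 or 4.

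Of the 12 transcription factors, 7 were lower at week 7 and 2 at week 10. Irf1, Irf8 and Irf5, interferon regulatory factors, had the smallest adjusted p at week 7, with -1.76, -1.45 and -1.53 (edgeR adjusted p = 4.14e-06, 9.44e-06 and 7.2e-05). At week 10 Irf5 (-1.14, adjusted p = 0.00241) and Irf8 (-0.81, adjusted p = 0.00304) passed in edgeR and Irf1 (-0.68, adjusted p = 0.0119) did not. The week-10 count was 1 without eGFP replicate 1 or 3 and 0 without LRG1 replicate 3 or 4.

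Of the 12 negative regulators, 5 were lower at week 7 and 1 at week 10, the latter near the 5.24% of all genes. Zc3h12a, an RNase that degrades cytokine transcripts, was at -0.99, Tnfaip3, the deubiquitinase A20, at -0.68 and Socs1 at -1.40 at week 7 (edgeR adjusted p = 0.000195, 0.000283 and 0.00216). At week 10 Atf3 was at -2.23 (edgeR adjusted p = 0.00263), with Tnfaip3 at -0.43 and Tnip1 at 0.32 not passing (adjusted p = 0.011 and 0.0136). The week-7 count was 3 without eGFP replicate 1 or LRG1 replicate 1 of that week and 2 without LRG1 replicate 3, and the week-10 count was 3 without eGFP replicate 2 and 0 without LRG1 replicate 3 or 4.

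Of the 19 tested induced cytokines and other outputs, 8 were lower at week 7 and 4 at week 10, with 0 higher. The other 11 and 15 did not pass, among them Il1b, Il6 and Nos2 at both weeks. The chemokines Ccl5 (-3.84, edgeR adjusted p = 9.62e-07) and Cxcl10 (-3.07, adjusted p = 4.35e-06) and the co-stimulatory molecule Cd86 (-1.28, adjusted p = 4.03e-06) had the smallest adjusted p at week 7. At week 10, Ccl3 was at -2.47 (edgeR adjusted p = 0.00347), Tnf at -1.23 (adjusted p = 0.00351) and Ccl5 at -1.55 (adjusted p = 0.00377). The 4 calls became 2 without LRG1 replicate 2, 1 without eGFP replicate 1 or LRG1 replicate 1 or 3, and 0 without eGFP replicate 3 or LRG1 replicate 4. The LRG1 effect differed between the weeks for Ly86 (1.04, edgeR adjusted p = 0.00311) and Cd86 (1.17, edgeR adjusted p = 0.00337), 2 of the genes of these lists, with the smaller effect at week 10. With the replicate block neither list held a call for the difference; the accessory list held 0 without eGFP replicate 4 or LRG1 replicate 1 or 3 of week 7 or LRG1 replicate 1 or 3 of week 10, and the output list 0 without eGFP replicate 4 or LRG1 replicate 1, 3 or 4 of week 7 or LRG1 replicate 1 or 2 of week 10.

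**Figure D5:**
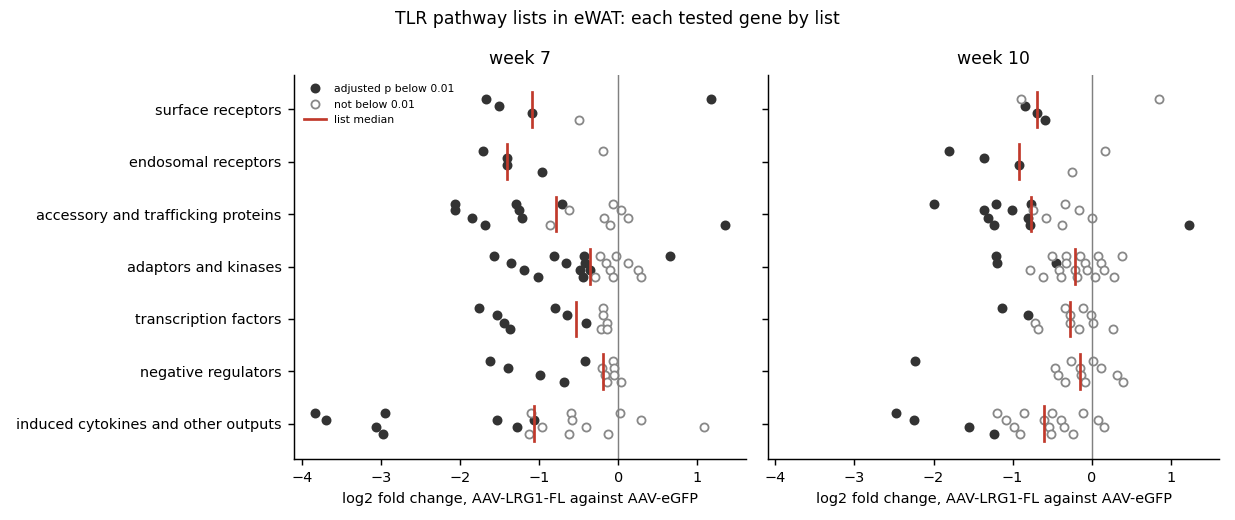
Log2 fold change of each tested gene (points; filled where the adjusted p was below 0.01) of the LRG1 group against eGFP controls in 7 lists of the pathway, at week 7 and week 10, with the list median as a line. Filled points lie left of 0 with 3 exceptions at week 7 (Tlr5, Lbp and Tab3) and 1 at week 10 (Lbp).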

How the data were processed

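The data were RNA-seq counts per gene from 16 eWAT libraries. According to the paper's methods and the labels, the authors trimmed reads with Cutadapt, aligned them to mm10 (GRCm38) with STAR and counted them with featureCounts, and deposited raw counts; tool versions and the strand and multi-mapping settings are not given in the sources used here. The deposited table also gives each gene's length in bases. Gene symbols came from a gene name table supplied as reference, which matched 55394 of 55573 identifiers; chromosomal ends and exon lengths of all 10 members were the same in GENCODE vM21. Promoters were from RefSeq (GRCm38.p6).

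Counts were filtered with filterByExpr by group, which left 20822 genes, and fitted with edgeR 4.0.16 (R 4.3.3, TMM factors, quasi-likelihood F test, 1 coefficient for each of the 4 groups over all 16 libraries). P-values were adjusted by Benjamini-Hochberg over all tested genes and called below 0.01; standard errors were computed from the fold change and F. On simulated counts for week 7 over 20822 genes, 23 of 67 genes changed by 1.5-fold, 58 of 67 by 2-fold and 64 of 66 by 4-fold were called, with 0 false calls. The changed genes were few, above 1 CPM and set in random directions, with independent noise drawn from the fitted spread. The simulation held no shift in cell mix and no split within a group, so it does not measure false calls in these data. Pair ratios used an exact two-sided permutation test (scipy 1.17.1). Likeness was the Pearson correlation of log2 CPM (prior count 2) deviations from group means, among tested genes at a mean of 1 CPM or more, and the 3 most alike were named. Named genes were all members, then in each pathway list up to 3 genes with the smallest adjusted p at each week plus any called against the rest. Il1b, Il6 and Nos2, which the paper measured in cultured macrophages, and the marker Cd209a were named as well. Alternatives were DESeq2 1.42.0, limma-voom (limma 3.58.1), other scalings, filters and thresholds, a fit of only the 8 libraries compared, the replicate number as a block, leaving out each library, and, chosen after seeing the data, removal of mitochondrial genes. Library totals ran from 45376227 to 67539937 counts.

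The members and lists were chosen with earlier results of these data known. Replicate numbers did not pair the libraries.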

Additional observations from a re-analysis of the deposited data

Results flagged for a closer look

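Of the 40 groups of 4 libraries (10 members in 4 groups), 4 held a library far from the other 3 by Dixon's criterion, where chance at 1 in 20 gives 2. Tlr5 lay at 11.1 CPM in LRG1 replicate 4 of week 10, with the others at 8.03 to 8.31 CPM. Tlr3 lay at 25.5 CPM in eGFP replicate 1 of week 7, with the others at 23.6 to 23.9 CPM. Tlr9 lay at 7.79 CPM in eGFP replicate 3 of week 7, with the others at 9.63 to 9.94 CPM. Tlr13 lay at 91.8 CPM in LRG1 replicate 2 of week 10, with the others at 59.1 to 64.1 CPM. These libraries lay on the same side of the other vector's libraries of that week as the rest of their group.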

How the results depend on the processing

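The week-7 count of 8 members ranged from 7 to 8 over all alternatives that left out a library, was 10 at an adjusted p below 0.05, 9 in DESeq2 and 9 with only the 8 libraries compared, and no member's direction at week 7 or 10 reversed in any alternative. The week-10 count of 6 was 8 in DESeq2, 8 at an adjusted p below 0.05, 3 with limma-voom, 0 with only the 8 libraries compared, and 2 to 8 when single libraries were left out. The difference between weeks (0 members) gave 1 with DESeq2 and 1 at an adjusted p below 0.05, and 0 to 1 when single libraries were left out; over all genes DESeq2 gave 38 negative and 230 positive differences there, against 4 and 64. The eGFP comparison of weeks (2 members) gave 1 with RLE size factors, 1 with only the 8 libraries compared, and 1 to 2 without single libraries, but 3 in DESeq2 and 3 at an adjusted p below 0.05, Tlr1 being added. The LRG1 comparison of weeks gave 0 throughout. Among 10 pair comparisons 3 were without overlap (3 to 4 without single libraries), in the length order 6 pairs (6 to 6), and relative to macrophage markers 10 of 20 (10 to 14).

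Over all genes, week 7 gave 2221 lower and 1534 higher, with 3636 and 341 under library size only, 1957 and 1993 under upper quartile scaling 3146 and 2581 with only 8 libraries, 2827 and 2387 in DESeq2 and 3442 and 3113 at an adjusted p below 0.05. Week 10 gave 1092 and 762, with 1937 and 1573 in DESeq2, 639 and 804 in limma-voom, 1136 and 320 under library size only, 2615 and 2146 at 0.05, and 10 and 2 with only 8 libraries. The difference gave 18 and 178 at 0.05, 3 and 119 under library size only, 6 and 98 with every counted gene tested, and 2 and 33 with the block. Between eGFP weeks 315 and 131 became 741 and 479 at 0.05, 616 and 467 in DESeq2, 476 and 91 under library size only, 202 and 56 with the block and 85 and 24 with only 8 libraries, and between LRG1 weeks 1 and 1 became 5 and 5 at 0.05, 24 and 31 in DESeq2, 1 and 10 with only 8 libraries and 0 and 0 with the block. The causes of these changes were not tested. The numbers shared by replicates gave correlations of deviations from -0.2 to 0.142 (median -0.0126; 24 pairs), so they were not treated as pairs. With the replicate block, members called were 8 at week 7, 4 at week 10, 0 for the difference, 2 between eGFP weeks and 0 between LRG1 weeks, and genes of all called at week 10 were 642 lower and 532 higher. The lowest count of a member in a library was 100, and 4 libraries a group limit the precision.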
